A study of Homo sapiens with 24 samples.

Results

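DU145 is an established human prostate cancer cell line, and the arrays described here measured its total RNA in cells transfected with a mimic of miR-638, or with NC2 or NC1, control mimics that target no transcript by design. Each mimic has 4 arrays, numbered as replicates 1 to 4. The 6 arrays numbered 3 and 4, 2 per mimic, were compared with the 6 numbered 1 and 2, with the mimic as a term, and these are 12 of the 24 arrays of the series. The other 12 arrays, of RNA pulled down with biotinylated mimics, enter no comparison. All cells carried a transfected mimic and were grown in DMEM with 10% FBS, with no untransfected sample among the 12, and their RNA, extracted with Trizol, was labelled with biotin. The replicate number in the sample title divided the arrays, and no measured value entered the division. The division itself was proposed with earlier results of these arrays known. The labels do not say what arrays of 1 number share, nor whether each is a culture of its own. The p-values therefore reflect array-to-array spread alone, which may be technical. A difference in the state of the cells and a difference in extraction, labelling or array processing between the 2 sets of arrays cannot be told apart.

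A microRNA mimic is a short double-stranded RNA that loads a chosen microRNA strand into Argonaute, so that transcripts paired to its seed are repressed. Interferon, the signal of antiviral defence in most tissues, acts through STAT and IRF transcription factors, which bind interferon-stimulated response elements and switch on antiviral and antigen presentation genes. The mature miR-638, which the mimic is named for, is shown because it is the agent tested, with its seed, bases 2 to 8, in capitals, from RefSeq (GRCh38.p14, chr19:10718419-10718443, plus strand).
hsa-miR-638: aGGGAUCGcgggcggguggcggccu

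The mean background-subtracted signal per array ran from 300.0 to 453 in replicates 3 and 4 and from 373 to 463 in replicates 1 and 2. Probes detected at p under 0.05 numbered 20964 to 22282 in replicates 3 and 4 and 20613 to 21678 in replicates 1 and 2. Both measures overlapped between the 2 sets. Of 6 probed luminal prostate markers, among them the androgen receptor and the secreted kallikreins, 0 passed the filter and 5 were detected on no array. The epithelial markers of this line were all tested, and KRT8, KRT19, EPCAM and CDH1 had mean levels of 9.05 to 11.67 (log2) in either set. KRT18 lay at 4.86 and 5.08, close to background.

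In a principal component analysis of 12646 genes, the first component held 55.4% of the variance and separated the 2 sets: arrays numbered 3 and 4 scored 22.76 to 27.41 and those numbered 1 and 2 scored -27.24 to -24.01. The next 2 components held 18.4% and 8.95% and followed the mimics, 1 holding NC2 apart and the other miR-638. With limma and a Benjamini-Hochberg adjusted p under 0.05, 6982 genes (55.2%) differed between the 2 sets, 3205 higher (25.3%) and 3777 lower (29.9%) in replicates 3 and 4. Most of these differences were small. The SD of the difference over all genes was 0.45 (log2) and the median was -0.03. At least 2-fold differences were more often increases, with 345 genes higher (2.73%) and 117 lower (0.925%). In 1399 genes (11.1%) every array of replicates 3 and 4 lay above every array of replicates 1 and 2, and in 1318 (10.4%) every one lay below. Within each mimic, both arrays of replicates 3 and 4 lay on 1 side of both of replicates 1 and 2, the same side in all 3, for 5008 genes (39.6%). With genes in 4 equal groups by brightness, 34.3% of the dimmest and 64.7% of the brightest passed the test. All differences below are replicates 3 and 4 minus replicates 1 and 2, on the log2 scale of the normalised signal, with the standard error of the fit over 6 arrays against 6. Every adjusted p is limma's.

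Interferon-stimulated genes held the largest increases. IFITM3, a membrane protein that blocks virus entry, had 10.70 and 10.75 with the miR-638 mimic, 11.41 and 11.36 with NC2 and 10.05 and 10.14 with NC1 in replicates 3 and 4, against 6.71 and 6.62, 6.18 and 6.07, and 6.20 and 6.17 with the same mimics in replicates 1 and 2. Every array of replicates 3 and 4 was more than 3 log2 units above every array of replicates 1 and 2. IFITM3 rose by 4.41 (SE 0.14, adjusted p = 3.23e-18), a 21.3-fold difference, and the related IFITM2 rose by 3.92 (SE 0.13, adjusted p = 1.16e-17). Their sequences are alike, and signal crossing between their probes was not tested.

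The oligoadenylate synthetases, which make the second messenger that activates RNase L, followed. OAS2 had a lowest, median and highest level of 7.36, 8.72 and 10.42 in replicates 3 and 4 and of 4.35, 4.53 and 4.89 in replicates 1 and 2, where 1 of 6 arrays detected it. The arrays with NC2 were the highest of replicates 3 and 4 and those with NC1 the lowest. OAS2 rose by 4.22 (SE 0.23, adjusted p = 1.52e-13), although its other probe differed by 1.81, and OAS3 rose by 3.18 (SE 0.15). MX1, an antiviral GTPase, spanned 10.69 to 13.18 (median 12.07) in replicates 3 and 4 and 8.02 to 9.08 (median 8.58) in replicates 1 and 2, and rose by 3.46 (SE 0.17, adjusted p = 3.14e-14). PLAAT4, a phospholipid-modifying growth suppressor, spanned 10.50 to 11.08 in replicates 3 and 4 and 7.12 to 7.81 in replicates 1 and 2, and rose by 3.37 (SE 0.09). The secreted galectin-binding protein LGALS3BP was detected on 6 arrays of replicates 3 and 4 and on 0 of replicates 1 and 2. With undetected arrays set at their lowest detected signal it was at least 7.41-fold higher (adjusted p = 6.3e-17). For MX2, likewise detected on 6 and 0 arrays, the bound was 5.92-fold (adjusted p = 1.37e-10).

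Of the 40 interferon-stimulated genes tested, 39 were higher in replicates 3 and 4 and 0 lower, where 25.3% of all genes tested were higher. Their median difference was 2.05, against -0.03 for all genes. The differences ranged from 0.03 for IFI44L, which did not pass (adjusted p = 0.87), to 4.41. The summed linear signal of the list was 25300 to 76610 in replicates 3 and 4 and 8768 to 11770 in replicates 1 and 2, so the lowest array of replicates 3 and 4 was above the highest of replicates 1 and 2.

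Promoters of the interferon-stimulated genes are shown because these genes moved together. The 250 bases before the start of each gene, from RefSeq, were searched on both strands for the core of the interferon-stimulated response element: GAAA, 2 bases of any kind, then GAAA, or on the other strand TTTC, 2 bases of any kind, then TTTC. Promoters were found for 32 of the 40 genes, and 20 of them (62.5%) held it, against 244 of 10112 promoters of genes tested (2.41%) and 839 of 27305 promoters in all (3.07%). Among the genes at least 2-fold higher 29 of 259 promoters held it (11.2%) and among those at least 2-fold lower 4 of 87 (4.6%). The genes at least 2-fold higher include members of the interferon list, so their share is not separate from that of the list. The 4 named members with a match and the smallest p follow, each with the matched letters in capitals, read in the direction of the gene (GRCh38.p14). A match describes letters and shows no binding.
IFITM3, chr11:320861-321110, minus strand: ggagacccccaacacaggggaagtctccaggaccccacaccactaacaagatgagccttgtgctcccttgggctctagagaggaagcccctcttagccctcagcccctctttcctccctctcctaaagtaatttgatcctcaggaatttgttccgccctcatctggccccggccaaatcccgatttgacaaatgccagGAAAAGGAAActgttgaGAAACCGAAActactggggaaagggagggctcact
LGALS3BP, chr17:78979924-78980173, minus strand: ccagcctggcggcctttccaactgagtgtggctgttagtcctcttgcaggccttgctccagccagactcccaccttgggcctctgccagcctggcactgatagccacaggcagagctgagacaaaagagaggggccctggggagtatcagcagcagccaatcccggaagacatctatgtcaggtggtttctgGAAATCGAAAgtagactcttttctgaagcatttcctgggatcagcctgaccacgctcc
OAS3, chr12:112938224-112938473, plus strand: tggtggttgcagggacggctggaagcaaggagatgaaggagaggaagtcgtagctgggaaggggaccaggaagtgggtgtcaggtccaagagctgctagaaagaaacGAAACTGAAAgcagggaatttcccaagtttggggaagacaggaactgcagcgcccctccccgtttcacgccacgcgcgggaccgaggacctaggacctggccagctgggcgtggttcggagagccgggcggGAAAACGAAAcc
IFI27, chr14:94110486-94110735, plus strand: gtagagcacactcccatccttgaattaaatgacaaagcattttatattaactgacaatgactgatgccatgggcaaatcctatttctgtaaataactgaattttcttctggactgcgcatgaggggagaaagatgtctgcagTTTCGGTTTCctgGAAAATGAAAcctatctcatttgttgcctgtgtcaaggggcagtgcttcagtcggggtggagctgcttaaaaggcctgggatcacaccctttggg

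In IFITM3 the matches begin 52 and 35 bases before the start, in LGALS3BP 58, in OAS3 143 and 12, and in IFI27 108 and 95.

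Antigen presentation genes were higher as well, a list drawn up after its values had been seen. CD74, the invariant chain that guides MHC class II molecules, had a lowest, median and highest level of 7.29, 7.48 and 7.56 in replicates 3 and 4 and of 4.31, 4.51 and 4.68 in replicates 1 and 2. It was detected on 6 and 0 arrays and was at least 5.86-fold higher (adjusted p = 6.07e-18). PSMB8 and PSMB9, the catalytic subunits that replace their constitutive counterparts in the immunoproteasome, rose by 1.69 (SE 0.06) and 2.54 (SE 0.09), without overlap between the 2 sets. The probes of PSMB9 differed by 0.88 and 2.54 and those of PSMB8 by 0.41 to 1.70. Of 23 members 22 were higher and 0 lower, with a median of 0.835, where 25.3% of all genes were higher and 29.9% lower. The class I genes HLA-B and HLA-C differed by 0.98 and 1.01 and the class II gene HLA-DRB1 by 1.43; these 3 were named after their values were seen, and probes for such polymorphic genes can read related alleles.

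Sensors and signalling genes of the interferon pathway, also listed after their values were seen, went both ways. IFI16, which binds foreign DNA, had a lowest, median and highest level of 8.66, 9.21 and 10.16 in replicates 3 and 4 and of 6.28, 6.60 and 7.45 in replicates 1 and 2, and rose by 2.54 (SE 0.10, adjusted p = 1.64e-16). The adaptor STING1 rose by 1.42 (SE 0.08). CGAS, the enzyme that makes the messenger for STING1, fell by 0.53 (SE 0.08, adjusted p = 7.25e-06), and SOCS1, which restrains cytokine signalling, fell by 1.04 (SE 0.12). Of 26 tested, 13 were higher and 4 lower, where 25.3% of all genes were higher and 29.9% lower.

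**Figure D1:**
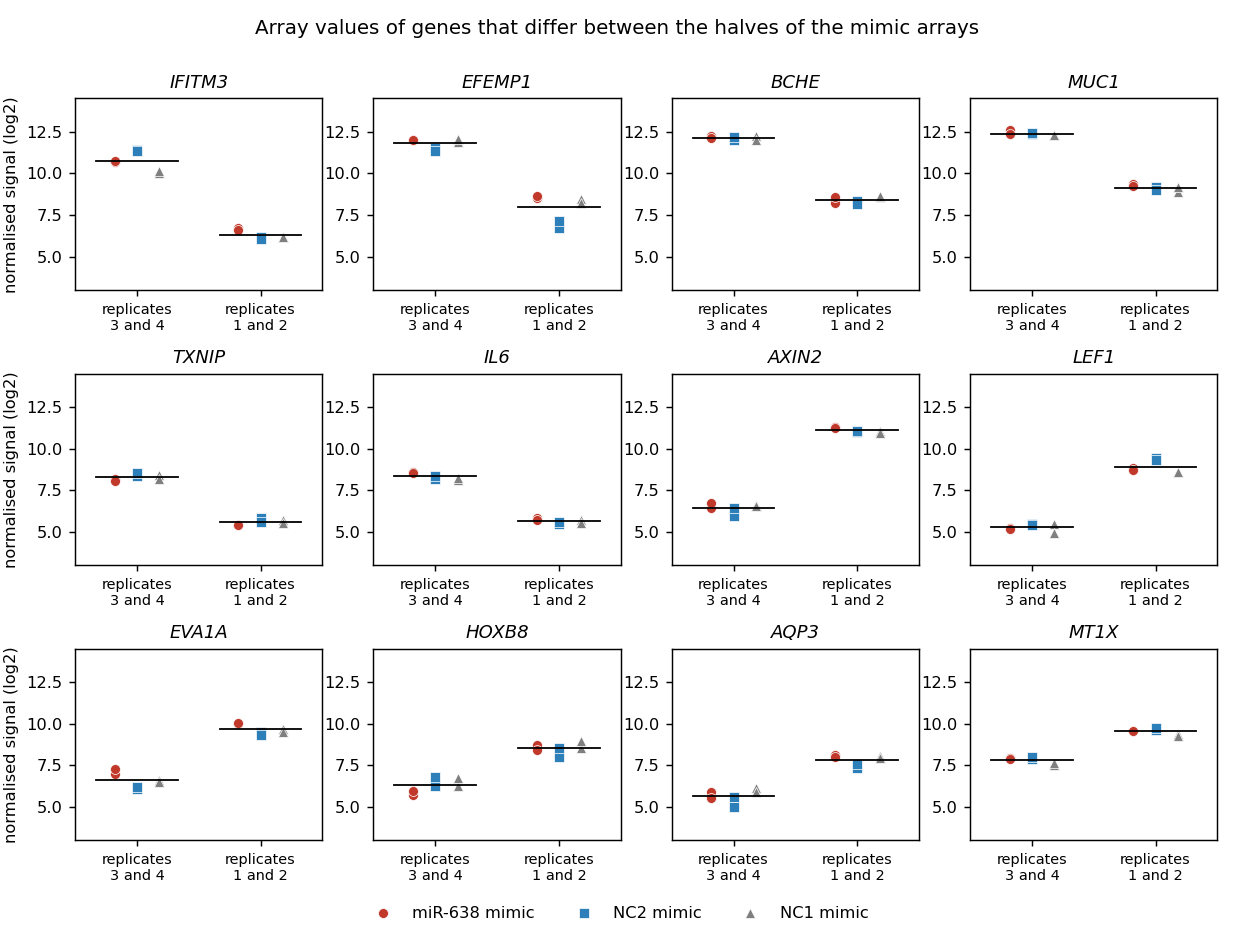
Normalised signal (log2) of 12 genes on each of the 12 mimic arrays, replicates 3 and 4 on the left of each panel and replicates 1 and 2 on the right, with circles for the miR-638 mimic, squares for NC2, triangles for NC1 and a line at the mean of the 6 arrays. The 2 sets do not overlap in any panel: the first 6 genes are higher in replicates 3 and 4 (IFITM3 by 4.41) and the last 6 are lower (AXIN2 by -4.64).

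Several of the largest increases lay outside the interferon lists. EFEMP1, a fibulin of the extracellular matrix, had a lowest, median and highest level of 11.33, 11.95 and 12.06 in replicates 3 and 4 and of 6.75, 8.35 and 8.64 in replicates 1 and 2, and rose by 3.84 (SE 0.12, adjusted p = 2.29e-18). BCHE, the enzyme butyrylcholinesterase, had 12, 12.17 and 12.27 in replicates 3 and 4 and 8.18, 8.44 and 8.63 in replicates 1 and 2, and rose by 3.72 (SE 0.07, adjusted p = 1.59e-22). MUC1, a membrane mucin of glandular epithelia, had 12.28, 12.38 and 12.59 in replicates 3 and 4 and 8.89, 9.20 and 9.37 in replicates 1 and 2, and rose by 3.25 (SE 0.06, adjusted p = 1.19e-22). For all 3 genes the lowest array of replicates 3 and 4 was above the highest of replicates 1 and 2. S100A9, a calcium-binding protein of inflamed epithelia and myeloid cells, was at least 7.13-fold higher, with detection on 6 arrays of replicates 3 and 4 and 0 of replicates 1 and 2. MAL2, a membrane protein of epithelial transport, rose by 2.96 (SE 0.07) and WFDC2, a secreted protease inhibitor, by 2.91 (SE 0.09).

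TXNIP, the thioredoxin-binding protein that rises with glucose through the factor MondoA, had 8.04, 8.24 and 8.54 in replicates 3 and 4 and 5.39, 5.56 and 5.82 in replicates 1 and 2. It rose by 2.71 (SE 0.08, adjusted p = 2.09e-18). The cytokine IL6 had 8.10, 8.31 and 8.60 in replicates 3 and 4 and 5.46, 5.64 and 5.81 in replicates 1 and 2, and rose by 2.70 (SE 0.08, adjusted p = 1.18e-18). Both were separated by more than 2 log2 units. The lists they belong to did not move 1 way: of 23 FOXO, MondoA and quiescence genes 8 were higher and 6 lower (60.9% called, against 55.2% of all genes), and of 18 NF-kB genes 8 were higher and 6 lower (77.8%). BCL2L11, a proapoptotic FOXO target, fell by 0.98 on the probe chosen for it and by 0.55 on its other, and the cytokine LIF fell by 0.61 (SE 0.08).

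The 2 largest decreases were in genes of Wnt signalling, a pathway in which stabilised beta-catenin joins TCF and LEF factors on DNA. AXIN2, a feedback inhibitor that beta-catenin switches on, had 6.46 and 6.73 with the miR-638 mimic, 5.96 and 6.41 with NC2 and 6.59 and 6.57 with NC1 in replicates 3 and 4, against 11.27 and 11.24, 10.97 and 11.07, and 11.06 and 10.93 with the same mimics in replicates 1 and 2. It fell by 4.64 (SE 0.08, adjusted p = 6.6e-23), a 24.9-fold difference. LEF1, the DNA-binding partner of beta-catenin, had a lowest, median and highest level of 4.96, 5.33 and 5.5 in replicates 3 and 4 and of 8.59, 8.77 and 9.45 in replicates 1 and 2, and fell by 3.62 (SE 0.10, adjusted p = 2.13e-19). No array of replicates 3 and 4 reached the level of any array of replicates 1 and 2 for either gene. In a list of Wnt targets drawn up after these values were seen, 10 of 16 were lower and 2 higher (29.9% and 25.3% of all genes), with a median of -0.36, and DKK1, a secreted Wnt inhibitor, rose by 0.49. The median of that list was -0.497 with miR-638, -0.0778 with NC2 and -0.695 with NC1, and whether these medians differ was not tested. Among ligands, receptors and pathway members, 8 of 25 were lower and 6 higher, 56% called in all and so near the 55.2% of all genes. CTNNB1, beta-catenin itself, fell by 0.35 (SE 0.06, adjusted p = 5.28e-05) and the secreted DKK3 rose by 2.36 (SE 0.09).

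HOX genes, which set positional identity along the body axis, went both ways. HOXB8 had 5.74, 6.26 and 6.80 in replicates 3 and 4 and 8.02, 8.53 and 8.96 in replicates 1 and 2, and fell by 2.24 (SE 0.14, adjusted p = 9.88e-13). HOXB2 fell by 2.20 (SE 0.08) and HOXB5 by 1.14 (SE 0.05). HOXC8 was higher by 0.46, and HOXC6 by 0.53 on the probe chosen for it, with a difference near 0 on another. In the list, which was also drawn up after its values were seen, 9 of 18 were lower and 6 higher, where 29.9% of all genes were lower and 25.3% higher.

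EVA1A, an endoplasmic reticulum protein linked to autophagy, had 6.07, 6.56 and 7.28 in replicates 3 and 4 and 9.30, 9.61 and 10.05 in replicates 1 and 2, and fell by 3.06 (SE 0.08). DNM3, a dynamin GTPase, fell by 2.95 (SE 0.10) and was detected on 4 arrays of replicates 3 and 4 and 6 of replicates 1 and 2. The scavenger receptor COLEC12 and the adhesion protein TENM3 were detected on 0 arrays of replicates 3 and 4 and 6 of replicates 1 and 2, and were at least 5.52-fold and 3.63-fold lower in replicates 3 and 4. For each of these 4 genes no array of replicates 3 and 4 reached the level of any array of replicates 1 and 2. TESC, a calcium-binding protein, fell by 2.74 (SE 0.09), MYBPH, a myosin-binding protein, by 2.68 (SE 0.16), RBM20, a splicing regulator known from heart muscle, fell by 2.60 (SE 0.13), the ubiquitin ligase RNF182 by 2.26 (SE 0.09) and the pseudokinase TRIB2 by 2.20 (SE 0.08). The channel AQP3, which passes water and glycerol, had 4.98, 5.72 and 6.12 in replicates 3 and 4 and 7.35, 7.95 and 8.13 in replicates 1 and 2, and fell by 2.16 (SE 0.10, adjusted p = 1.26e-14).

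**Figure D2:**
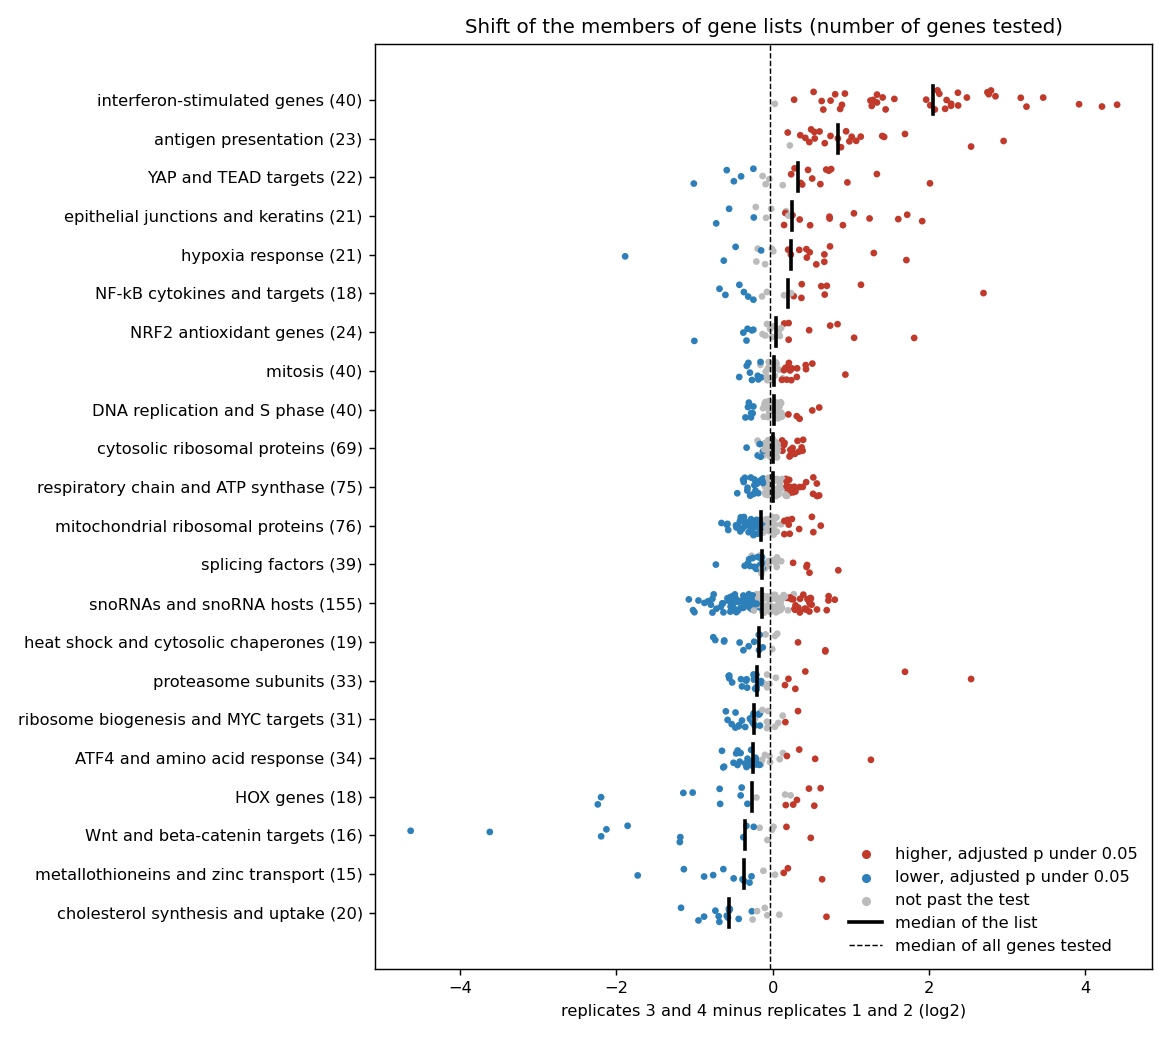
Differences between replicates 3 and 4 and replicates 1 and 2 (log2, horizontal) for the tested members of gene lists, 1 point a gene, red where higher and blue where lower at an adjusted p under 0.05 and grey otherwise, with a bar at each list's median and a dashed line at the median of all genes, -0.03. The interferon-stimulated genes have the highest median, 2.05, and cholesterol synthesis the lowest, -0.56.

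Sterol synthesis was lower. SQLE, squalene epoxidase, had a lowest, median and highest level of 11.61, 11.67 and 11.82 in replicates 3 and 4 and of 12.41, 12.65 and 12.71 in replicates 1 and 2, and fell by 0.95 (SE 0.05, adjusted p = 3.14e-14). INSIG1, which holds the sterol sensor in the endoplasmic reticulum, fell by 0.73 (SE 0.05). Of 20 genes of cholesterol synthesis and uptake 14 were lower and 1, TM7SF2, higher, with a median of -0.56, where 29.9% of all genes were lower and 25.3% higher. Of 15 fatty acid synthesis genes 6 were lower and 3 higher, 60% called against 55.2% of all genes: ACLY, which makes cytosolic acetyl-CoA, fell by 0.48 and FADS1, a desaturase, rose by 0.37.

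Metallothioneins and zinc transporters were lower in 10 of 15 genes and higher in 3, with a median of -0.365, against 29.9% lower and 25.3% higher of all genes. MT1X, a metal-binding protein switched on by zinc through the factor MTF1, had 7.51, 7.86 and 7.98 in replicates 3 and 4 and 9.28, 9.58 and 9.72 in replicates 1 and 2, and fell by 1.73 (SE 0.06, adjusted p = 2.42e-17). SLC30A1, the zinc exporter of the plasma membrane, fell by 1.14 (SE 0.09), and the importer SLC39A10 rose by 0.63 (SE 0.06). Metallothionein transcripts are near identical, and their probes may share signal. The MT1X promoter, shown for the metal response element that MTF1 binds, holds its core TGCACNC, on the other strand GNGTGCA, 122 and 78 bases before the start. Among promoters of the list 4 of 10 held that core, against 9.33% of those of genes tested.
MT1X, chr16:56682220-56682469, plus strand: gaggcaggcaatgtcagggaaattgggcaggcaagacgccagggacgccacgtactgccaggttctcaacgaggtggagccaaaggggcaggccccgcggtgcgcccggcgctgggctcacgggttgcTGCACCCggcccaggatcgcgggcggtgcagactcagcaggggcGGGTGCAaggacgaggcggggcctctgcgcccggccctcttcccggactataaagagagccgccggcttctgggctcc

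Over all genes 29.9% were lower and 25.3% higher, and the lists of protein and RNA production are read against these shares. Of 34 ATF4 and amino acid response genes 22 were lower and 4 higher, with a median of -0.26. TRIB3, an ATF4-induced pseudokinase, fell by 0.63 (SE 0.06), and PSPH, the last enzyme of serine synthesis, by 0.62. WARS1, a tRNA synthetase that interferon also induces, rose by 1.26 (SE 0.07). Of 31 ribosome biogenesis genes 20 were lower and 2 higher (median -0.24), with RRS1 lower by 0.60 and BOP1 by 0.52. Of 76 mitochondrial ribosomal protein genes 42 were lower and 10 higher (median -0.15), and MRPS23 fell by 0.66 (SE 0.06) while MRPS33 rose by 0.62 (SE 0.06). Splicing factors had 17 of 39 lower and 5 higher, and snoRNAs and their hosts had 60 of 155 lower and 27 higher; with 56.4% and 56.1% called, both were near the 55.2% of all genes. The nuclear protein HNRNPU fell by 0.73 on the probe chosen for it and by 0.08 on its other probe.

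Chaperone and proteasome lists are set against the same shares, 29.9% lower and 25.3% higher. Of 19 heat shock genes 12 were lower and 3 higher (median -0.175). HSPH1, a cytosolic chaperone, had 11.19 to 11.31 in replicates 3 and 4 and 11.81 to 12.22 in replicates 1 and 2, and fell by 0.76 (SE 0.05), while HSPA1A, the inducible heat shock protein, rose by 0.67 (SE 0.05). HSPA5, the main chaperone of the endoplasmic reticulum, fell by 0.70 (SE 0.05), in a list with 10 of 21 lower and 1 higher. Among 33 proteasome subunits 22 were lower and 6 higher (median -0.21). PSMA2 of the core fell by 0.56 (SE 0.07) and PSMC3 of the cap by 0.41 (SE 0.05), and the largest increases of that list were PSMB8 and PSMB9, described above.

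Of 40 DNA replication genes 5 were higher and 7 lower, with a median of 0.01, and the 30% called was below the 55.2% of all genes. Mitosis had 15 of 40 higher and 9 lower (60% called), with a median of 0.02. Both medians were negative with median scaling. FEN1, a replication nuclease, rose by 0.51 (SE 0.06) and RFC3, a clamp loader subunit, fell by 0.35, though another of its probes differed by 0.03. HMMR, a spindle protein, rose by 0.93 (SE 0.07, adjusted p = 1.73e-11), and the mitotic kinase PLK1 fell by 0.43 (SE 0.06). CDKN1A, the p53-induced cell cycle inhibitor, rose by 0.70 (SE 0.05, adjusted p = 9.83e-12), in a p53 list with 3 of 22 higher and 6 lower (40.9% called). Replication-dependent histones had 11 of 37 higher and 2 lower (35.1%). Of 69 cytosolic ribosomal protein genes 16 rose and 5 fell (30.4%), and of 75 respiratory chain genes 20 rose and 18 fell (50.7%). The medians of these 2 lists were 0.01 and 0.01 and turned negative with median scaling.

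Hypoxia genes were higher in 12 of 21 and lower in 4, where 25.3% of all genes were higher and 29.9% lower. VEGFA, the vascular growth factor, had 9.76, 10.04 and 10.07 in replicates 3 and 4 and 8.38, 8.73 and 8.83 in replicates 1 and 2, and rose by 1.29 (SE 0.07, adjusted p = 2.06e-13). LOX, which cross-links collagen, was detected on 6 and 0 arrays and was at least 2.61-fold higher, and the glucose transporter SLC2A3, detected on 0 arrays of replicates 3 and 4 and 6 of replicates 1 and 2, was at least 3.00-fold lower. Glycolytic genes had 7 of 17 higher and 4 lower (64.7% called, against 55.2% of all genes), with HK2 higher by 0.83 on 1 probe and 0.23 on the other. NRF2 genes were higher in 8 of 24 and lower in 6, 58.3% called and so near the share of all genes: the glutathione peroxidase GPX2 rose by 1.81 (SE 0.08) and the exporter ABCC3 by 1.04 (SE 0.05), and the exporter ABCC2 fell by 1.00 (SE 0.07).

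Cytoskeletal, matrix and junction lists are read against 25.3% higher and 29.9% lower of all genes. Of 22 YAP and TEAD targets 13 were higher and 5 lower (median 0.32), and IGFBP3, which binds insulin-like growth factors, rose by 2.01 (SE 0.10) while the kinase NUAK2 fell by 1.01 (SE 0.07). SRF and actin genes had 8 of 24 higher and 6 lower, 58.3% called and so near the 55.2% of all genes. LIMA1, an actin-bundling protein, fell by 1.32 (SE 0.05) and CALD1, caldesmon, rose by 0.90 (SE 0.06) on the probe chosen for it, with 0.40 the lowest of its 3 probes. TNC, the matrix protein tenascin, fell by 1.27 (SE 0.06), against an increase of 0.63 for TGFBI, in a matrix list with 13 of 28 higher and 7 lower. Epithelial junction and keratin genes were higher in 13 of 21 and lower in 3. CLDN7, a claudin, rose by 1.91 (SE 0.11), and DSP, desmoplakin, fell by 0.56 (SE 0.06). Of 9 mesenchymal genes 2 were higher and 4 lower, with S100A4 lower by 1.22 (SE 0.07) on 1 probe and by 0.70 on its other, and ZEB2, detected on 0 arrays of replicates 3 and 4, at least 1.80-fold lower.

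Cell type markers were examined because RNA from fewer cells of a type and less RNA per cell cannot be told apart in bulk samples. The adhesion protein EPCAM had 11.46, 11.72 and 11.81 in replicates 3 and 4 and 9.63, 9.85 and 10.36 in replicates 1 and 2, and rose by 1.72 (SE 0.07, adjusted p = 1.64e-16), and the keratin KRT8 rose by 0.90 (SE 0.06). The marker counts are read against 25.3% higher and 29.9% lower of all genes. In all, 4 of 5 epithelial markers were higher and 0 lower, with a summed signal of 8147 to 10150 in replicates 3 and 4 and 4551 to 5439 in replicates 1 and 2. Of 11 probed blood markers 5 were tested, 3 of them higher (CD14, CD68 and CD79A) and LYZ lower, with a summed signal of 2182 to 2800 in replicates 3 and 4 and 1245 to 1614 in replicates 1 and 2. PTPRC, carried by all white blood cells, did not pass the filter. Fibroblast markers had 3 of 8 tested and 0 past the test, and endothelial markers 1 of 7 tested and 0 past. The part of other cells in the differences was not tested.

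The title of the series concerns a ferritin heavy chain pseudogene network, and iron genes were listed for that reason. FTL, the ferritin light chain, had 14.15, 14.21 and 14.34 in replicates 3 and 4 and 13.50, 13.80 and 14 in replicates 1 and 2, and rose by 0.47 (SE 0.06, adjusted p = 4.2e-07). CYBRD1, a ferric reductase, rose by 1.52 (SE 0.07), and the iron exporter SLC40A1 rose by 1.00 on 1 probe and 0.22 on its other. Of 17 iron genes 7 were higher and 5 lower (70.6% called, against 55.2% of all genes), with a median of -0.06 that was 0.04 in the authors' values. TAGLN, an actin-binding protein of smooth muscle, had 9.77, 10.12 and 11.24 in replicates 3 and 4 and 8.20, 8.49 and 9.89 in replicates 1 and 2, and rose by 1.48 (SE 0.07, adjusted p = 1.68e-14). The 2 sets overlapped: the arrays with the miR-638 mimic were the highest of each set, and those of replicates 1 and 2 reached into the range of replicates 3 and 4 with NC2. In the microRNA machinery 5 of 16 were higher and 6 lower (68.8%): the helicase MOV10 rose by 0.78 (SE 0.07) and AGO2, the slicing Argonaute, fell by 0.61 (SE 0.06, adjusted p = 4.14e-09).

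Whether the difference depended on the mimic was tested next, in a fit with 6 cells of 2 arrays each. Within the miR-638 mimic 4787 genes (37.9%) differed between the 2 sets, within NC2 4760 (37.6%) and within NC1 4482 (35.4%). These 3 comparisons share no array, although they share the quantile normalisation. Their differences correlated across genes at Pearson's r of 0.84 to 0.883 (12646 genes, which are not independent replicates). In 1445 genes the 2 sets differed upward within all 3 mimics, in 1262 downward, and in 34 genes 2 mimics had passing differences of opposite sign.

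A moderated F test of the 2 interaction terms called 195 genes (1.54%), of which 149 also differed between the 2 sets over all mimics and 128 had the same sign of difference in the 3 mimics. The contrast of the miR-638 mimic with the mean of both controls called 64 genes (0.506%), 26 with a more positive (0.206%) and 38 with a more negative (0.3%) difference under miR-638. The contrast of NC2 with NC1 called 120 (0.949%), 92 more positive (0.728%) and 28 more negative (0.221%) with NC2. At this size of experiment the miR-638 contrast recovered 27% of simulated differences of 0.5 and 84% of those of 1 (log2). The simulation changed a small share of the genes and left the others with no difference between the 2 sets, unlike these data. Its rates need not hold here, and a gene not called may still differ. Leaving out single arrays gave 108 to 182 genes for the F test, 18 to 72 for the miR-638 contrast and 59 to 128 for NC2 against NC1. The lowest of these came without NC2 mimic replicate 4, miR-638 mimic replicate 3 and NC1 mimic replicate 2.

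**Figure D3:**
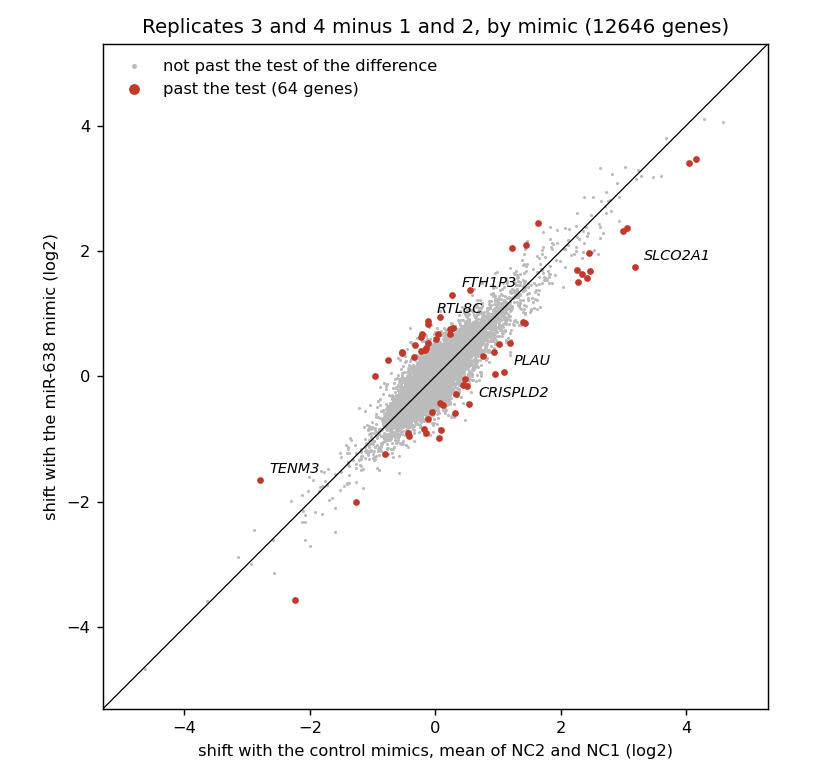
Difference between replicates 3 and 4 and replicates 1 and 2 (log2) with the miR-638 mimic (vertical) against the mean of the same difference with NC2 and NC1 (horizontal), 1 point a gene, with the line of equality and the 64 genes past the test in red. Most genes lie along the line. FTH1P3 and RTL8C lie above it and SLCO2A1, PLAU and CRISPLD2 below it.

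Interferon-stimulated genes depended on the mimic, with the larger differences under NC2. IFI27, a mitochondrial interferon-induced protein, had 7.78 and 7.99 with the miR-638 mimic, 9.72 and 9.57 with NC2 and 6.79 and 6.80 with NC1 in replicates 3 and 4, against 5.28 and 5.22, 5.49 and 5.66, and 5.41 and 5.10 with the same mimics in replicates 1 and 2. The difference was 2.54 larger with NC2 than with NC1 (SE 0.21, adjusted p = 1.35e-08, and 0.0521 in the authors' values). For OAS2 it was 2.47 larger (SE 0.25, adjusted p = 2.54e-07) and for MX2 2.39 (SE 0.23, adjusted p = 1.71e-07). These 3 genes, named for this contrast, lay within 0.31 between NC2 and NC1 in replicates 1 and 2 and 2.36 to 2.85 apart in replicates 3 and 4. In replicates 1 and 2 IFI27 was detected on 6 arrays, OAS2 on 1 and MX2 on 0. For OAS2 and MX2 the closeness there is therefore one of signals near background. Of the 40 genes 28 had a larger difference with NC2 than with NC1 and 0 a smaller one, against 0.728% and 0.221% of all genes. The F test called 26, against 1.54% of all genes. The median difference was 1.6 with miR-638, 2.70 with NC2 and 1.45 with NC1. Against the mean of both controls 8 were smaller with miR-638 and 0 larger, where 0.3% and 0.206% of all genes were. All 3 medians were above 1.

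**Figure D4:**
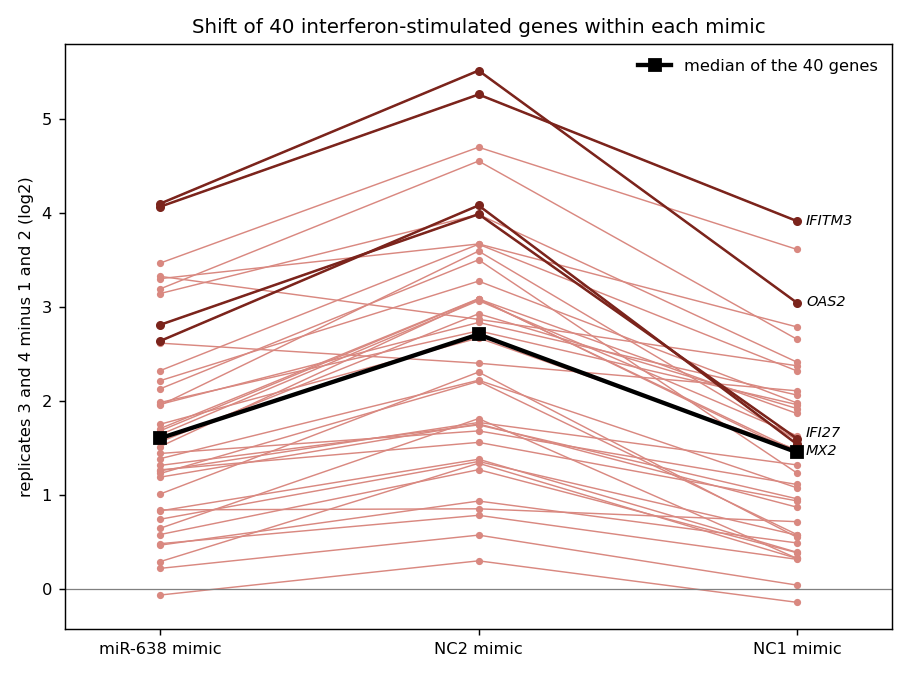
Difference between replicates 3 and 4 and replicates 1 and 2 (log2, vertical) of 40 interferon-stimulated genes within the miR-638, NC2 and NC1 mimics (horizontal), 1 line a gene, with the median in black. The medians are 1.6, 2.70 and 1.45, and OAS2 reaches 5.51 with NC2 and 3.04 with NC1.

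FTH1P3 had the smallest adjusted p among the 10 genes named for their dependence on miR-638. This pseudogene of the ferritin heavy chain had 11.25 and 11.23 with miR-638, 11.80 and 11.88 with NC2 and 12.02 and 11.90 with NC1 in replicates 3 and 4, against 9.91 and 9.97, 11.64 and 11.76, and 11.66 and 11.46 with the same mimics in replicates 1 and 2. The 2 miR-638 arrays of replicates 1 and 2 were lower than all others by more than 1 log2 unit. The difference between the 2 sets was 1.31 with miR-638, 0.14 with NC2 and 0.40 with NC1, 1.04 larger with miR-638 than with the controls (SE 0.10, adjusted p = 2.48e-06). Put the other way, miR-638 lowered FTH1P3 by 0.65 relative to the controls in replicates 3 and 4 and by 1.69 in replicates 1 and 2. Other ferritin heavy chain transcripts may reach this probe, which was not tested. RTL8C, a gene derived from a retrotransposon, had cell means of 8.92 with miR-638, 9.67 with NC2 and 9.72 with NC1 in replicates 3 and 4, and of 8.03, 9.90 and 9.73 with the same mimics in replicates 1 and 2. Its difference was 1.01 larger with miR-638 (SE 0.13, adjusted p = 4.11e-05, and 0.085 in the authors' values).

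TENM3 differed by -1.66 with miR-638, -2.60 with NC2 and -2.98 with NC1, and was undetected on all arrays of replicates 3 and 4. The contrast was 1.14 (SE 0.21, adjusted p = 0.00575). Levels in replicates 1 and 2 were 6.0 with miR-638, 6.94 with NC2 and 7.33 with NC1, so the contrast rests on those and on signals under detection in replicates 3 and 4. Without miR-638 mimic replicate 1 its adjusted p was 0.0811. NCBP2AS2, a small protein gene, and CYTOR, a long noncoding RNA, had contrasts of 1.00 and 0.97 with adjusted p of 0.0284 and 0.0432, and over the alternatives these reached 0.429 and 0.331. The call was lost in 11 of 20 alternatives for NCBP2AS2 and in 14 of 20 for CYTOR.

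In the other direction, SLCO2A1, which imports prostaglandins, rose by 1.74 with miR-638, 3.62 with NC2 and 2.74 with NC1, a contrast of -1.44 (SE 0.15, adjusted p = 5.48e-06). Its levels were 9.40, 8.66 and 9.22 with these mimics in replicates 3 and 4, against 7.66, 5.04 and 6.48 in replicates 1 and 2. PLAU, the protease urokinase, differed by 0.07 with miR-638, 1.42 with NC2 and 0.77 with NC1 (contrast -1.03, SE 0.12, adjusted p = 3.84e-05), and CRISPLD2, a secreted protein, by -0.44, 0.84 and 0.23 (contrast -0.97, SE 0.12). In the authors' values the adjusted p was 0.108 for PLAU and 0.204 for CRISPLD2, and PLAU was at 0.0504 with an untrended prior. For SLCO2A1, PLAU and CRISPLD2 the mimics were further apart in replicates 1 and 2 than in 3 and 4. MYBPH differed by -3.57 with miR-638, -2.23 with NC2 and -2.25 with NC1 (contrast -1.33, adjusted p = 0.00147). That p was 0.0539 without miR-638 mimic replicate 1 and reached 0.33 over the alternatives, 5 of 19 of which lost the call. GET3, which inserts tail-anchored membrane proteins, had a contrast of -1.05 with an adjusted p of 0.0491, which reached 0.305 without miR-638 mimic replicate 1. For GET3 13 of 20 alternatives lost the call.

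Between the controls, a few genes outside the interferon list went the other way. NDNF, a secreted growth factor of neurons, differed by -2.54 with NC2 and -1.14 with NC1, a deeper decrease with NC2 (contrast -1.4, SE 0.25, adjusted p = 0.00287), and was detected on 0 arrays of replicates 3 and 4. KLRC2, a receptor known from natural killer cells, differed by -2.45 with NC2 and -1.11 with NC1 (contrast -1.34, SE 0.25, adjusted p = 0.00371, and 0.113 in the authors' values). It was detected on 2 arrays of replicates 3 and 4. In replicates 1 and 2 NDNF had 7.06 with NC2 and 5.75 with NC1, and KLRC2 had 7.73 and 5.71. Both contrasts rest on these levels and on signals near or under detection in replicates 3 and 4. ZBED2, a transcription factor, differed by -1.14 with NC2 and 0.11 with NC1 (contrast -1.25, SE 0.20, adjusted p = 7.64e-04). Of 22 YAP and TEAD targets 6 had a more positive difference under NC2 than under NC1, against 0.728% of all genes. For 3 the difference was more negative under miR-638 than under the mean of both controls, against 0.3% of all genes. The median of the list was 0.124 with miR-638, 0.646 with NC2 and 0.137 with NC1. The median with miR-638 was thus close to that with NC1, and NC2 raised the mean of the controls. Apart from the YAP and TEAD targets and the interferon-stimulated genes, 3 members at most of any list passed either contrast.

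Fewer genes differed between mimics in replicates 3 and 4. Against both controls, miR-638 called 861 genes (6.81%) within replicates 3 and 4 and 2370 (18.7%) within replicates 1 and 2, in the same fit with 2 arrays a cell. The SD of that difference over 12646 genes was 0.193 in replicates 3 and 4 and 0.259 in replicates 1 and 2. NC2 against NC1 called 2144 (17%) and 3637 (28.8%), with SDs of 0.303 and 0.36. The differences made in separate arrays of each set correlated across genes at r of 0.586 for miR-638 and 0.692 for NC2 against NC1. Whether the spread of these differences itself differs between the 2 sets was not tested. TAGLN was higher with miR-638 by 1.10 in replicates 3 and 4 and by 1.49 in replicates 1 and 2, and FTL differed by -0.03 and -0.39, with interaction adjusted p of 0.223 and 0.135.

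**Figure D5:**
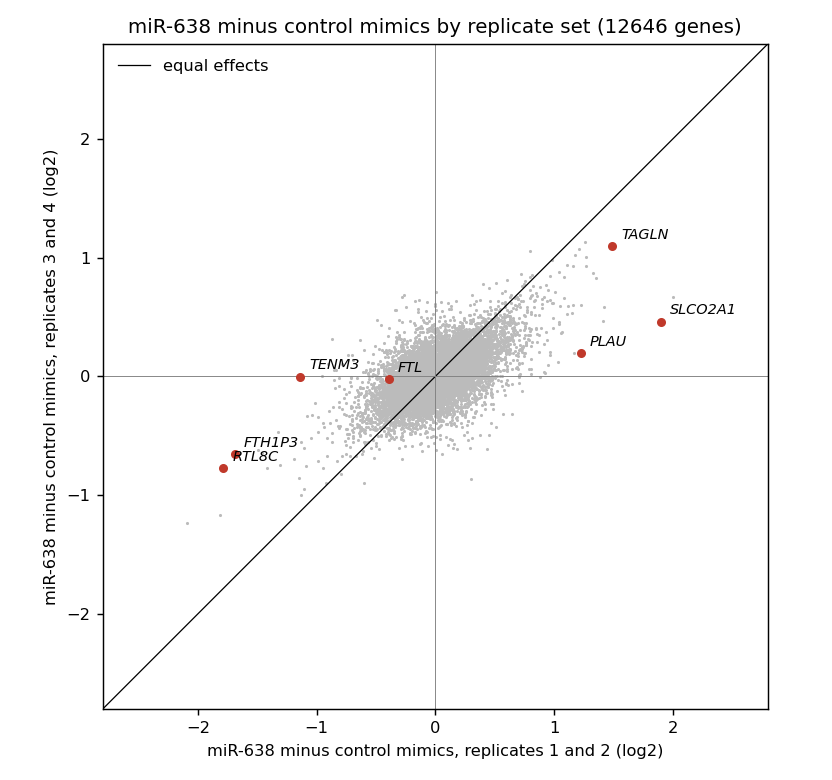
Difference between the miR-638 mimic and the mean of NC2 and NC1 (log2) in replicates 3 and 4 (vertical) against the same in replicates 1 and 2 (horizontal), 1 point a gene, with the line of equal effects. Points spread further along the horizontal axis, with SDs of 0.193 and 0.259, and FTH1P3 lies at -0.65 and -1.69.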

How the data were processed

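Total RNA of DU145 cells was measured on 12 arrays of 47323 probes. The deposited file holds a background-subtracted intensity and a detection p-value for each probe, and the scanner software is not given in the sources used here. The authors' value table, on a log2 scale by its values, was deposited with no stated method and was used only as an alternative. Probe identifiers and the labelling kit are Illumina's, although the design text gives a different manufacturer. Intensities were normalised with neqc in limma 3.58.1 (R 4.3.3), with an offset of 16 and quantile normalisation over the 12 arrays. Probes with a detection p-value under 0.05 on at least 4 arrays were kept (22469), of which 5447 had no single gene name. The probe of highest mean stood for each gene (12646 genes). Names came from the platform annotation table, which pairs 30113 probes with 1 symbol and 8 with several, and 17202 probes are not listed in it.

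Replicates 3 and 4 were compared with replicates 1 and 2 in a limma fit with mimic as a term (8 residual degrees of freedom). A fit with 1 mean for each mimic and set (6 residual degrees of freedom) tested dependence on the mimic. Both used a trended prior and Benjamini-Hochberg adjustment over all genes at 0.05. A gene undetected on every array of a set has a bound, "at least N-fold", with each such array at the higher of its value and its lowest detected signal. On simulated data of 12646 genes the first comparison recovered 92% of differences of 0.5 and 100% of those of 1 (log2). The simulated noise was independent, and a small share of the genes carried a difference. In the data 55.2% of genes differed, so these rates need not hold for them. The number of arrays limits the precision. Members and lists were chosen with earlier results of these data known. Genes were named by rule: the 14 largest increases and the 14 largest decreases that held within every mimic, the 5 most positive and the 5 most negative dependences on miR-638, the first 3 each way between NC2 and NC1, up to 2 members of smallest p in each direction of a list, and FTL, FTH1P3 and TAGLN. Placeholder names were counted and not named, 72 of them among genes past the first test. Deviations of arrays with the same number correlated at -0.0046 to 0.14, so the numbers were not taken to pair the arrays. Alternatives were median scaling, quantile normalisation, the authors' values, other filters, an untrended prior, replicate blocks and leaving out each array. Promoter and microRNA sequences are from RefSeq (GRCh38.p14).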

Additional observations from a re-analysis of the deposited data

Results flagged for a closer look

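In 8 of 374 sets of 6 arrays examined, 1 array stood apart from the others. The measure was the share of the set's range that its gap to the nearest array takes. The cut-off passes about 1 in 20 sets of 6 values drawn from 1 population. These sets hold 3 mimics, so that rate need not apply, and 8 of 374 is below it. In replicates 3 and 4 the sets with such an array were MUC1 at 0.628 (miR-638 replicate 3), PLAU at 0.659 (NC2 replicate 4), CNN3 at 0.757 (NC1 replicate 4) and NDUFA2 at 0.673 (miR-638 replicate 4). In replicates 1 and 2 they were SQLE at 0.793 (NC1 replicate 2), DNAJB1 at 0.648 (miR-638 replicate 1), JMJD6 at 0.751 (NC2 replicate 2) and SDHD at 0.783 (NC2 replicate 1).

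The difference between replicates 3 and 4 and replicates 1 and 2 varied among the mimics, by limma's F test of the interaction, in 35 of the 185 named genes. Over all genes tested 1.54% passed. Some of the 185 were named because they passed a contrast of this same interaction, so these shares cannot be compared. Among interferon and antigen genes the adjusted p was 1.68e-08 for MX1, 4.6e-08 for IFI27, 6.06e-07 for IFITM3, 6.32e-07 for MX2, 9.8e-07 for OAS2, 7.95e-06 for IFITM2, 9.07e-06 for OAS3, 0.0179 for PLAAT4, 0.0226 for WARS1, 0.0293 for STING1 and 0.0499 for IFI16. Among genes named for miR-638 it was 5.02e-07 for SLCO2A1, 6.93e-07 for FTH1P3, 3.22e-06 for PLAU, 5.52e-06 for CRISPLD2, 3.86e-05 for RTL8C, 0.0018 for MYBPH, 0.0055 for TENM3, 0.0282 for NCBP2AS2 and 0.0405 for GET3. For the other genes it was 0.000416 for EFEMP1, 0.00129 for ZBED2, 0.00482 for TESC, 0.00555 for AXL, 0.00696 for NDNF, 0.00752 for KLRC2, 0.0111 for CD68, 0.0146 for NEU1, 0.0156 for COLEC12 and PTPN14, 0.0208 for DKK3, 0.0249 for RBM20, 0.0405 for SLC2A3 and DUSP1, and 0.0416 for EPCAM.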

How the results depend on the processing

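The 6982 genes that differed between replicates 3 and 4 and replicates 1 and 2 numbered 6654 to 6809 without single arrays and 1486 (955 higher, 531 lower) where a difference of at least 1.5-fold was also asked. In the authors' values 5343 differed, 3022 higher and 2321 lower, 56.6% higher against 45.9% in the fit reported. Within mimics the authors' values gave 2947 genes for miR-638, 2956 for NC2 and 2596 for NC1 (61.4%, 63.2% and 62.4% higher), and leaving out single arrays gave 3444 to 4899, 3626 to 4796 and 3240 to 4576.

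Counts of genes that depended on the mimic also moved. The F test (195) gave 98 with quantile normalisation alone, 41 in the authors' values, 89 with no filter on dim probes, 60 with an untrended prior, and 108 to 182 without single arrays (124, 121 and 108 without NC2 replicates 2, 3 and 4). The miR-638 contrast (64) gave 33, 14, 33 and 14 under the same 4 settings, the last with 9 larger and 5 smaller, and 18 to 72 without single arrays (40 without NC1 replicate 2, and 30, 39, 18 and 38 without miR-638 replicates 1, 2, 3 and 4). NC2 against NC1 (120) gave 74, 29, 62 and 61, and 59 to 128 without single arrays (79, 59 and 75 without NC1 replicates 1, 2 and 3, and 72 and 69 without NC2 replicates 3 and 4). The cause was not tested. With the replicate number as a fixed block the counts were 263, 97 and 155, and as a random block the first comparison gave 7306 genes, which held all 6982 (correlation -0.0694).

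Of single-gene tests 3835 kept their direction and call, 84 lost it, 2 gained it and 3 reversed. The 3 were all of ESAM, an endothelial marker that did not pass the test, at 0.0019 with median scaling, 0.0328 in the authors' values and 0.0058 without miR-638 mimic replicate 3; without single arrays it ran down to -0.1048. The median difference of all genes was -0.03 in the fit and 0.01 in the authors' values. In the authors' values 248 of the genes tested sit at the floor on all 12 arrays. In the fit reported 121 of them were called higher and 2 lower, and the authors' values cannot call any of them. OAS2, CD74 and MX2 are among these and have no value there, although OAS2 reached 10.42 in replicates 3 and 4 in the fit reported. Signal near background limits the dimmest genes.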

Other observations

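Detection on the arrays of pulled-down RNA, which enter no comparison, was counted for the genes found in 1 set of mimic arrays only. Of the 47 genes detected on all 6 arrays of replicates 3 and 4 and on none of replicates 1 and 2 (0.372% of genes tested), each of the 12 pulldown arrays detected 32 to 44. Of these 47 genes 22 were detected on all 12 pulldown arrays and 0 on none. Of the 14 genes detected on all arrays of replicates 1 and 2 and on none of replicates 3 and 4 (0.111%), each pulldown array detected 2 to 6. Of these 14 genes 2 were detected on all 12 pulldown arrays and 5 on none. No share over all genes tested is set beside these counts, and a difference between the 47 and the 14 genes was not tested. The labels do not say which mimic arrays, if any, share cultures with the pulldown arrays.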
